A study of Mus musculus with 6 samples.

Results

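Glutathione and antioxidant enzyme genes were followed in whole ovaries of wild-type mice (WT) and of mice with a Dennd1a transgene (TG). The set was taken by symbol: glutathione transferases of the Gsta, Gstk, Gstm, Gsto, Gstp, Gstt and Gstz families, Mgst1 to Mgst3, Gpx1 to Gpx8, Prdx1 to Prdx6, Txn1 and Txn2, Txnrd1 to Txnrd3, Sod1 to Sod3, and Cat, Gclc, Gclm, Gss, Gsr, Nqo1, Hmox1, Nfe2l2 and Keap1. Of the 18280 genes that the authors deposited, 56 matched. Ovaries came from 3 mice of genotype Dennd1aTG and 3 of genotype WT, and every mouse had been given PMSG, a gonadotropin with FSH activity, 44 h earlier. The labels give neither the promoter of the transgene, the founder line, the strain nor the age, and they do not say whether a library holds RNA of a single mouse or a pool, although the series' design speaks of 3 animals per genotype. The submitters tie the transgene to poor fertility and a weak response to FSH, and the comparison asks whether these genes differ between the genotypes. Libraries held between 17075484 and 18516171 estimated counts. Dennd1a itself had 580.0 ± 8.97 CPM (counts scaled to library size) in transgenic and 44.5 ± 4.91 CPM in wild-type ovaries (SD, n = 3 each), so every library carried the level of its label. The granulosa markers Inha, Foxl2 and Nr5a2 were present at 3083, 92.0 and 134 FPKM (a level scaled to gene length and library size) over the 6 libraries.

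Ovarian cells make hydrogen peroxide and superoxide during mitochondrial respiration and steroid synthesis, and the enzymes followed here remove them. Superoxide dismutases turn superoxide into peroxide, and catalase, glutathione peroxidases and peroxiredoxins remove the peroxide. Glutathione and thioredoxin supply the electrons, their reductases recharge them with NADPH, and glutathione transferases couple glutathione to reactive lipids and foreign compounds. NRF2, encoded by Nfe2l2, is the transcription factor that drives many of these genes through the antioxidant response element, and KEAP1 holds NRF2 for degradation until oxidants or electrophiles release it.

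Letters that match the core of the antioxidant response element are shown in the promoters of members, since it is the sequence through which Nfe2l2 acts. Windows of 300 bases (250 before and 50 after a gene start, RefSeq, GRCm38.p6) were found for 49 of the 56 genes. The element's core was searched on both strands as TGANNNNGC, and as the stricter TGACNNNGC, which is a subset of the looser motif. The stricter core stood in 14.3% of the 63 member windows and in 12.4% of all 32851 windows, and the looser core in 46.0% and 41.3%. Gclm, Gsta3, Gstm5, Gstm7, Mgst1, Nfe2l2, Prdx1, Sod1 and Txnrd1 held the stricter core, in Txnrd1 at 1 of its listed starts. The window of Nqo1 held neither core, which says only that these letters are not in that window, and Hmox1 and Gclc had no window. Of the genes with the stricter core, 5 are printed, 3 as well-known NRF2 targets (Gclm, Prdx1 and Txnrd1) and the others for their high level (Mgst1 and Sod1). Each is given from the gene's own strand, 5′ to 3′, with the core in capitals; in all 5 it lies on the other strand and therefore reads GCNNNGTCA.
Gclm (chr3:122245408-122245446, plus strand): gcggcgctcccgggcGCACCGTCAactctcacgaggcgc
Prdx1 (chr4:116685451-116685489, plus strand): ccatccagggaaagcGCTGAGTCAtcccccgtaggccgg
Txnrd1 (chr10:82859099-82859137, plus strand): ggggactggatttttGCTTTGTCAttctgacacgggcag
Mgst1 (chr6:138140456-138140494, plus strand): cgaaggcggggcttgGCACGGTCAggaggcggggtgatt
Sod1 (chr16:90220691-90220729, plus strand): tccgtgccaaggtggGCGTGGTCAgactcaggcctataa
The cores begin 134, 133, 92, 56 and 56 bases before the listed start of the respective window. For Txnrd1 that start lies inside the gene, which spans positions 82833951 to 82897724 of chromosome 10. A match is a match of letters only and says nothing of binding. The 9 genes with the stricter core had a median log2 ratio (the fitted log2 fold difference, TG over WT) of 0.06, between -0.06 and 0.14, and the 32 tested genes whose windows lack it had -0.01, between -0.22 and 0.25.

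In the ovaries of both genotypes the antioxidant transcripts were abundant and were led by a secreted enzyme. Gpx3, the glutathione peroxidase secreted into plasma and follicular fluid, had a mean of 2678 FPKM and stood at place 9 among all 18280 genes. It held between 23.3% and 33.4% of the counts of the 56 genes, which together held between 1.14% and 1.32% of each library. Behind it came Sod1, the cytosolic copper-zinc superoxide dismutase (1148 FPKM), the transferases Gstm1 (992 FPKM) and Gstm2 (886 FPKM), Prdx1 (821 FPKM), the microsomal transferase Mgst1 (694 FPKM), Gpx1 (453 FPKM) and Gstp1 (394 FPKM). Of the 48 members with enough counts to be tested, 18 (37.5%) had a mean above 100 FPKM, against 6.42% of all 14124 genes tested, and their median level was 78.1 FPKM against 10.4.

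**Figure D1:**
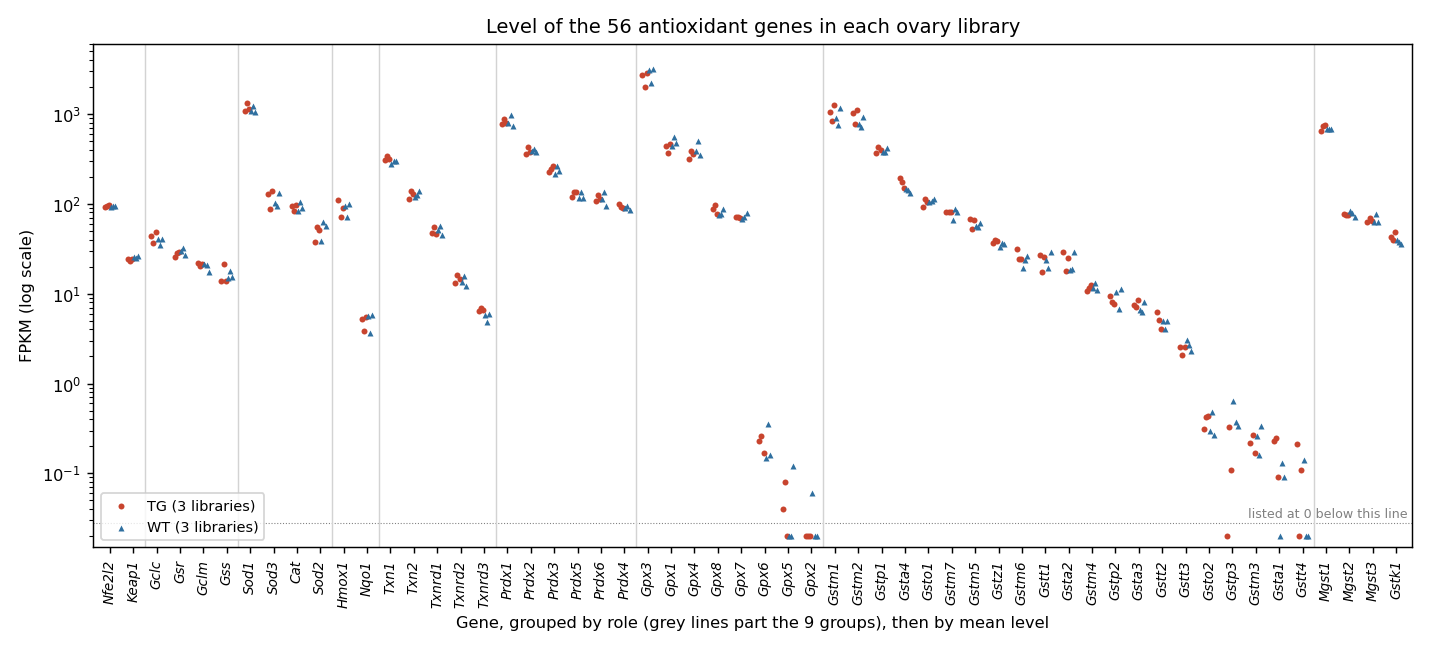
FPKM (log scale) of each of the 56 genes in each of the 6 libraries, red circles for TG and blue triangles for WT, with genes grouped by role and ordered by mean level. Gpx3 lies on top at 1972 to 3168 FPKM, and the 8 genes that were not tested lie below 1 FPKM in every library.

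Within families the order of levels was stable across animals in most cases. The FPKM ratio of Gpx3 to Gpx1 lay between 4.06 and 7.12 and that of Sod1 to the mitochondrial Sod2 between 18.4 and 28.8. The extracellular Sod3 in turn exceeded Sod2 by 1.51 to 3.41 times. Cytosolic Txn1 exceeded mitochondrial Txn2 by 2.12 to 2.66 times, and Txnrd1 exceeded Txnrd2 by 3.14 to 3.78 times. Gpx1 and the lipid-hydroperoxide enzyme Gpx4 did not keep an order, with a ratio between 0.938 and 1.39, nor did Prdx5 and Prdx6, with 0.995 to 1.22. Gstm1 stood only 1.03 to 1.24 times above Gstm2. Among the 24 ratios computed, which also included pairs from different families, 4 had TG and WT values that did not overlap. These were Txn1 to Txn2 and Gpx8 to Gpx7 (TG above WT), and Txnrd1 to Txnrd2 and Gsto1 to Gsta4 (TG below WT). Gsto1 and Gsta4 belong to different families, and Gsta4 by itself also had groups that did not overlap. None of the ratios was tested, and no background share was computed for them.

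No gene of the set was called different between TG and WT. Of the 48 tested members, 0 passed at an adjusted p under 0.05 in either direction in edgeR's quasi-likelihood test, where 1.05% of all tested genes passed (149 of 14124, 0.0354% higher and 1.02% lower in TG). The count was 0 in DESeq2 and in limma-voom too. At an unadjusted p under 0.05, 1 member (Gsta4) passed in edgeR, against 4.08% of all tested genes, and likewise 1 in DESeq2 and 1 in limma-voom. The member median of the log2 ratio was 0.02 and the range -0.22 to 0.29, beside a median of 0.00 over all genes tested. Log2 ratios were above 0 for 28 members and below 0 for 20. The groups did not overlap for 4 of 48 members, beside 8.25% of all tested genes. In 3 of them, Gsta4, Gstk1 and Txnrd3, TG was above WT (3.21% of all tested genes), and in 1, Keap1, TG was below (5.04% of all tested genes).

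The 95% intervals set how large a difference these 6 libraries leave possible. For 44 of the 48 genes the interval of the log2 ratio lay within 1.5-fold in both directions, and for all 48 within 2-fold. The 4 with wider intervals were Gsta2, Gstp2, Gstt3 and Sod2. Within 1.25-fold lay 23 of them. The median standard error was 0.11 for the members and 0.12 for all tested genes, and the spread between animals of a genotype (median coefficient of variation 10.3% against 10.4%) was also close. The labels do not say how the libraries of a genotype were made apart from naming 3 animals, so these errors measure the spread between the 3 libraries.

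**Figure D2:**
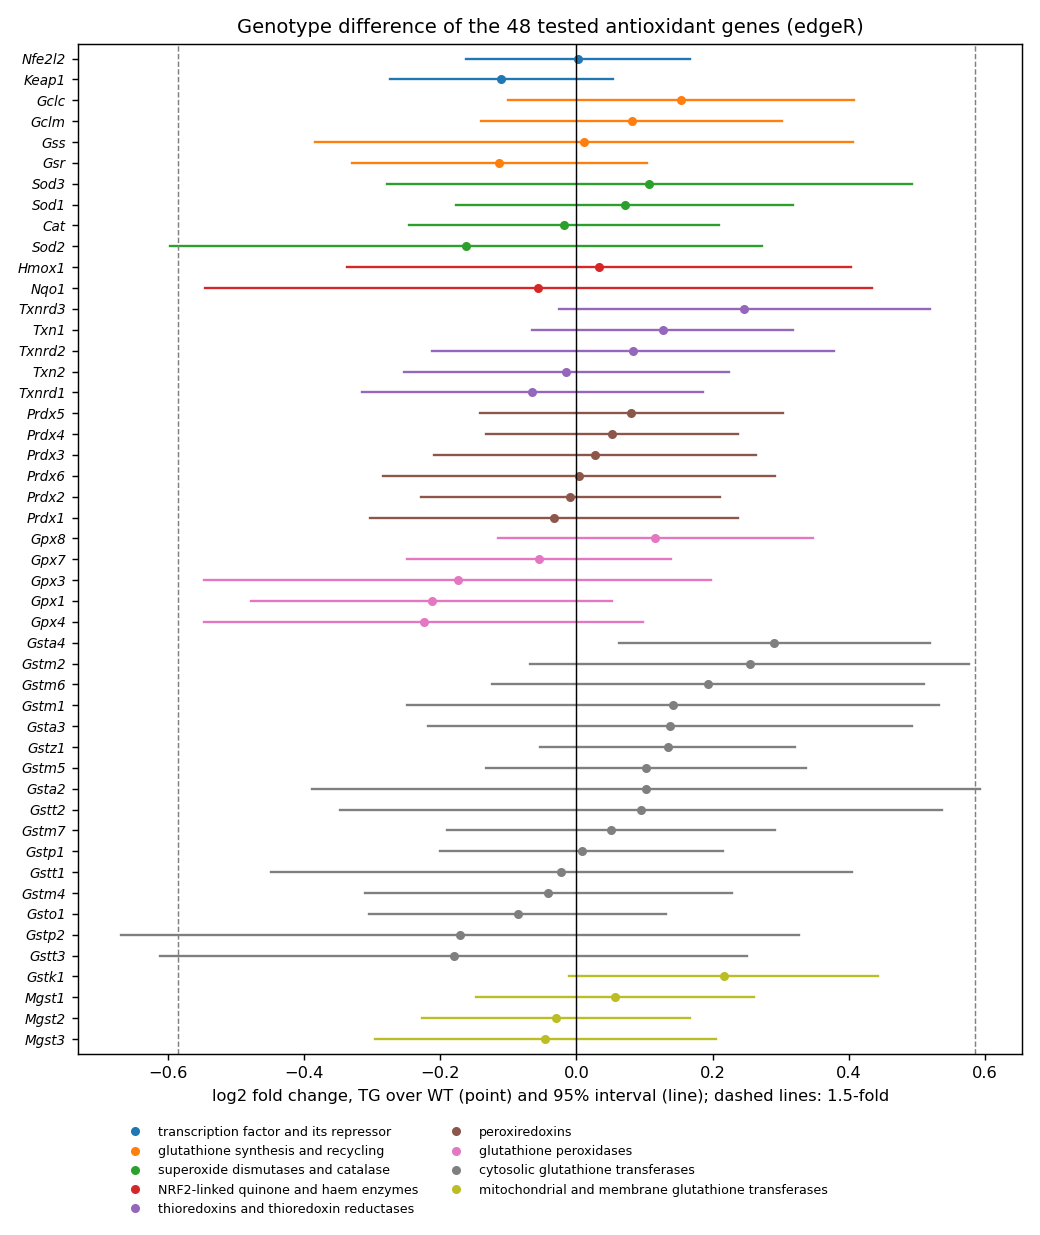
Log2 ratio of TG over WT (points) with its 95% interval (lines) for the 48 tested genes, coloured by role, with dashed lines at 1.5-fold. The interval of Gsta4 is the only 1 that lies wholly above 0 (0.06 to 0.52), and its adjusted p was 0.755.

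The regulators came out nearly alike in all 6 ovaries. Nfe2l2 measured 210.1, 224 and 222 CPM in TG and 213, 219.9 and 222 CPM in WT, in the order of replicates 1 to 3, which is kept throughout. The groups overlapped, and the log2 ratio was 0.00 (SE 0.07, 95% interval -0.16 to 0.17). Keap1 measured 74.6, 72.4 and 74.1 CPM in TG and 78.3, 78.4 and 82.0 CPM in WT. Each TG library was thus below each WT library, but the log2 ratio of -0.11 (SE 0.07, 95% interval -0.27 to 0.05) did not pass (adjusted p = 0.9997 in edgeR). Most adjusted p-values stand at this ceiling, 96.8% of all tested genes among them. Over 18 alternative settings the log2 ratio of Keap1 stayed between -0.12 and -0.08. Of all tested members these genes varied least between animals, with a coefficient of variation of 2.22% for Keap1 and 2.86% for Nfe2l2.

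Glutathione synthesis starts with the ligase whose catalytic and modifier subunits are Gclc and Gclm. Gclc measured 131, 113 and 150.1 CPM in TG and 124, 107 and 124 CPM in WT, with overlapping groups and a log2 ratio of 0.15 (SE 0.11, 95% interval -0.10 to 0.41). Gclm measured 41.6, 38.6 and 40.8 CPM in TG and 40.6, 40.2 and 33.5 CPM in WT, and only WT replicate 3 stood low (log2 ratio 0.08, SE 0.10). Gss, which adds glycine in the last step of synthesis, had its highest value in TG replicate 2 at 38.0 CPM, against 23.9 to 32.3 CPM in the other 5 libraries. Gsr, the NADPH-dependent reductase that restores reduced glutathione, measured 63.6, 71.2 and 72.0 CPM in TG and 74.2, 81.9 and 67.5 CPM in WT. Its groups overlapped, with a log2 ratio of -0.11 (SE 0.10).

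The NRF2-linked enzymes used as readouts of the pathway showed a larger difference between animals than between genotypes. Hmox1, the haem oxygenase that is also high in macrophages handling red cells, measured 153, 101 and 127 CPM in TG and 131, 99.9 and 141 CPM in WT. Nqo1, a quinone reductase, was low at 7.05, 5.34 and 7.64 CPM in TG and 7.71, 5.14 and 7.99 CPM in WT. For both genes the lowest TG value was in replicate 2 and the lowest WT value in replicate 2 as well. Their log2 ratios were 0.03 (95% interval -0.34 to 0.40) and -0.06 (95% interval -0.55 to 0.43). Beside Hmox1, the 8 macrophage markers summed to 191 to 199 CPM in TG and 218 to 356 CPM in WT, where edgeR called 0 of the 8 and 5 had an unadjusted p under 0.05. The part of these cells in the level of Hmox1 was not tested, and in bulk RNA fewer cells of a type and less RNA per cell cannot be told apart.

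All 3 superoxide dismutases and catalase had overlapping groups. Sod1 measured 502, 640.2 and 545 CPM in TG and 509.5, 589.7 and 507 CPM in WT, with replicate 2 highest in both genotypes and a log2 ratio of 0.07 (SE 0.11). Sod2, the manganese enzyme of mitochondria, measured 134, 202 and 184 CPM in TG and 141, 230.3 and 209.9 CPM in WT. Replicate 1 was lowest in both genotypes, and the interval of its log2 ratio was the widest of the 4 genes (-0.60 to 0.27). Sod3 measured 235, 167 and 259.8 CPM in TG and 189, 179 and 246 CPM in WT, lowest in replicate 2 of each. Its log2 ratio was 0.11 (SE 0.17), and 0.42 without TG replicate 2 and WT replicate 3 (adjusted p = 0.186 in edgeR). Cat, which breaks down peroxide in peroxisomes and is also abundant in red cells, had a log2 ratio of -0.02 (SE 0.10).

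Thioredoxins reduce protein disulphides, and thioredoxin reductases are selenoproteins that recharge them. Txn1 measured 262, 303 and 275 CPM in TG and 242, 264 and 263 CPM in WT, and the log2 ratio was 0.13 (SE 0.09, 95% interval -0.07 to 0.32). WT replicate 2 at 264 CPM stood just above TG replicate 1 at 262 CPM, so the groups overlapped. Txnrd3, the reductase best known from testis, measured 16.8, 18.5 and 17.5 CPM in TG and 15.5, 13.0 and 16.0 CPM in WT. The groups did not overlap, with a log2 ratio of 0.25 (SE 0.12) and an interval of -0.03 to 0.52 (adjusted p = 0.9997 in edgeR). Txnrd1 and Txnrd2, the cytosolic and the mitochondrial reductase, had -0.06 (SE 0.11) and 0.08 (SE 0.13), and Txn2 had -0.01 (SE 0.11).

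Peroxiredoxins, thiol peroxidases found from cytosol to mitochondria and endoplasmic reticulum, had the narrowest range of all role groups of more than 2 genes. Their 6 log2 ratios lay between -0.03 and 0.08, and their 95% intervals between -0.30 and 0.30. Prdx1, the most abundant of them, measured 942, 1105 and 991 CPM in TG and 974, 1218 and 916 CPM in WT, highest in replicate 2 of each genotype. Prdx2, which is also a major red-cell protein, had -0.01 (SE 0.10) at 456 to 564 CPM in TG and 484 to 524 CPM in WT. Over the same libraries the 7 erythrocyte markers summed to 194 to 216 CPM in TG and 119 to 134 CPM in WT. Of the 5 tested markers 3 were called higher, beside 0.0354% of all tested genes. The estimated counts of these 3, Hba-a1, Hba-a2 and Hbb-bs, had fractions in all 6 libraries, so their split between similar genes is uncertain. Prdx2 thus did not differ detectably beside a sum of red-cell markers whose groups did not overlap.

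Glutathione peroxidases had 4 of 5 tested log2 ratios below 0. Gpx3 measured 3632, 2690.1 and 3842 CPM in TG and 4144, 3032 and 4291 CPM in WT. Replicate 2 was lowest in each genotype, the groups overlapped, and the log2 ratio was -0.17 (SE 0.17, 95% interval -0.55 to 0.20). It was -0.32 without WT replicate 2 and 0.06 without TG replicate 2 and WT replicate 3. Gpx1, the cytosolic selenoenzyme, measured 373, 323 and 405 CPM in TG and 377, 484 and 415 CPM in WT, for a log2 ratio of -0.21 (SE 0.12, 95% interval -0.48 to 0.05). Gpx4, which protects membranes from lipid peroxides, measured 241, 311 and 285 CPM in TG and 299.5, 398 and 281 CPM in WT, and the log2 ratio was -0.22 (SE 0.14, 95% interval -0.55 to 0.10). In both Gpx1 and Gpx4 the highest library was WT replicate 2, and without it the log2 ratios were -0.11 and -0.06. Other omissions made them larger, to -0.30 for Gpx1 without WT replicate 1. For Gpx4 the log2 ratio was -0.41 without TG replicate 2 and WT replicate 3. Both genes kept their sign in all 18 alternative settings, and neither was called in any. The endoplasmic reticulum enzymes Gpx7 and Gpx8 had -0.06 (SE 0.09) and 0.12 (SE 0.10). Gpx2, Gpx5 and Gpx6 had 1, 6 and 25 counts over all 6 libraries and were not tested.

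Among glutathione transferases Gsta4, which conjugates the lipid-peroxidation product 4-hydroxynonenal, had the smallest p of the set. In the TG ovaries it stood at 149, 140.2 and 117 CPM, and in the WT ovaries at 115, 112 and 104 CPM. All TG libraries stood above all WT libraries, though TG replicate 3 exceeded WT replicate 1 by little. The log2 ratio was 0.29 (SE 0.10, 95% interval 0.06 to 0.52), a ratio of 1.22, with an unadjusted p of 0.0182 and an adjusted p of 0.755 in edgeR. Gsta4 lies at positions 78191966 to 78209349 of chromosome 9. Over 18 alternative settings its log2 ratio ran from 0.22 to 0.38 and its adjusted p was never under 0.256. The theca and interstitial markers summed to 13300 to 14100 CPM in TG and 12600 to 13200 CPM in WT, which did not overlap either. Most of that sum was Hsd3b1, whose groups overlapped (log2 ratio 0.01). Of the 5 markers 0 were called, 4 had log2 ratios above 0 and 1, Cyp17a1, had groups without overlap. An unadjusted p under 0.05 in edgeR was reached by 2 of them, Cyp17a1 (log2 ratio 0.73) and Aldh1a1 (0.38). The part of theca and interstitial cells in the Gsta4 values was not tested.

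**Figure D3:**
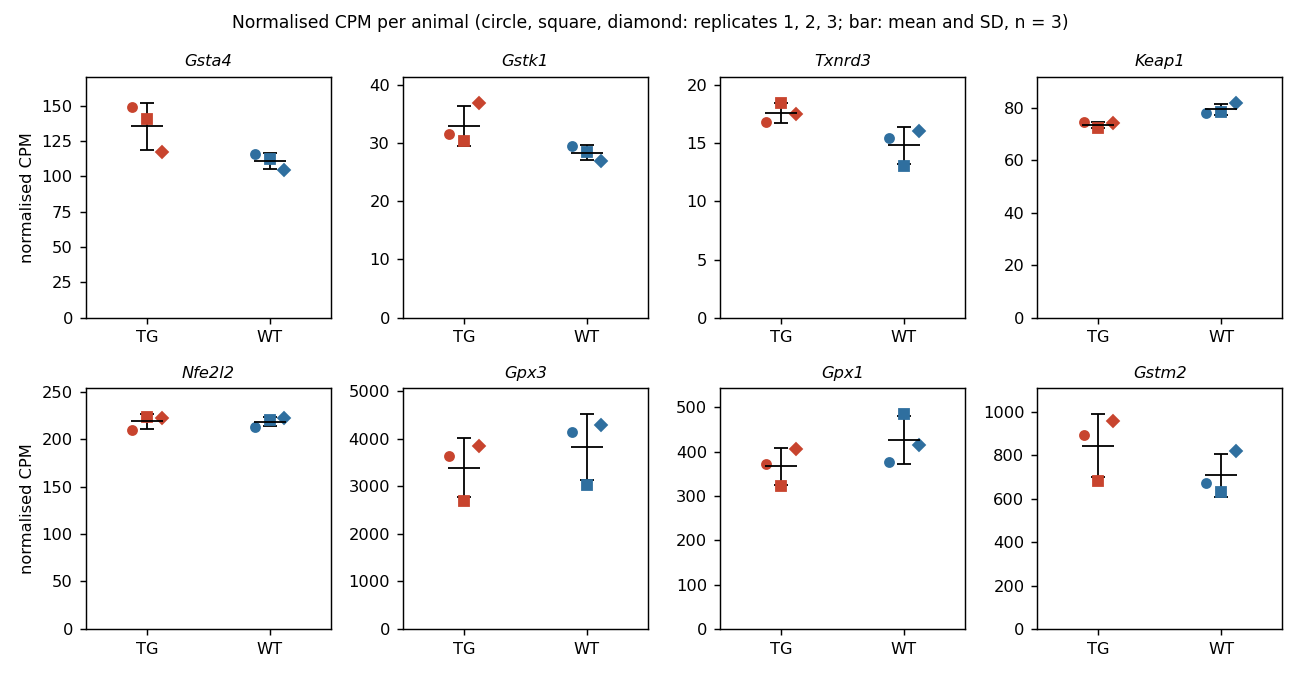
Normalised CPM of 8 genes in each animal (circle, square and diamond for replicates 1, 2 and 3), with the mean and SD of each genotype (n = 3). Gsta4, Gstk1 and Txnrd3 lie above WT and Keap1 below WT in every TG library, while the other 4 genes overlap and Gpx3 is lowest in replicate 2 of both genotypes.

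Gstk1, the mitochondrial and peroxisomal kappa transferase, measured 31.6, 30.4 and 36.9 CPM in TG and 29.6, 28.5 and 27.0 CPM in WT. Its groups did not overlap, with a log2 ratio of 0.22 (SE 0.10, 95% interval -0.01 to 0.44, adjusted p = 0.9997 in edgeR). Gstz1, which works in tyrosine breakdown, measured 54.3, 59.7 and 57.8 CPM in TG and 49.2, 54.5 and 52.9 CPM in WT. Only WT replicate 2 reached into the TG range, by a margin of less than 1 CPM, and the log2 ratio was 0.13 (SE 0.08). Mgst1 measured 486, 575 and 581 CPM in TG and 521, 525 and 533 CPM in WT, so that TG replicate 1 lay below and the other two above every WT library. Mgst2, Mgst3 and Gsto1 had -0.03, -0.05 and -0.09 on the log2 scale.

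Genes of the mu family lie side by side within 149.3 kb of chromosome 3 (107895854 to 108045179, 7 genes) and differed widely in level. Gstm1 and Gstm2 had 992 and 886 FPKM, Gstm7 and Gstm5 had 79.7 and 59.9 FPKM, Gstm6 and Gstm4 had 24.8 and 11.8 FPKM, and Gstm3 had 26 counts in all libraries together and was not tested. Gstm2 measured 893, 681 and 959 CPM in TG and 675, 630.1 and 819 CPM in WT, for a log2 ratio of 0.25 (SE 0.14, 95% interval -0.07 to 0.58). TG replicate 2 lay inside the WT range and the other TG libraries above it. Without TG replicate 2 and WT replicate 3, the libraries highest in adipocyte and in oviduct markers, the log2 ratio of Gstm2 was 0.50 with an adjusted p of 0.10 in edgeR, the lowest of any member in any of the 18 settings. Gstm1 measured 1173, 939.7 and 1391 CPM in TG and 1015, 861 and 1300.3 CPM in WT (log2 ratio 0.14, SE 0.17), with overlap. Gstm6 measured 30.0, 23.95 and 23.97 CPM in TG and 19.0, 23.6 and 25.6 CPM in WT (0.19, SE 0.14), and the other tested mu genes lay between -0.04 and 0.10.

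The pi, alpha and theta families held genes of very different levels. Gstp1 had 394 FPKM and a log2 ratio of 0.01 (SE 0.09), and its neighbour Gstp2 on chromosome 19 had 8.93 FPKM and -0.17 (SE 0.22). Estimated counts of Gstp1, Gstp2 and Gsta2 had fractions in all 6 libraries, and those of Gsta1 and Gstz1 in 5 of 6, as where reads are divided among similar sequences, and their split between such genes is uncertain. The other 51 genes had whole counts (within 0.005) in every library, the mu genes included. Gsta2 measured 12.9 to 21.1 CPM in TG and 13.7 to 21.1 CPM in WT, and Gsta3, Gstt1, Gstt2 and Gstt3 had log2 ratios between -0.18 and 0.14. Gsta1, Gsto2, Gstp3 and Gstt4 had 9.64, 43, 18 and 6 counts in all libraries together and were not tested. Another gene of the table overlaps Gstz1 (Pomt2), Prdx5 (Trmt112) and Txnrd1 (Eid3), and without strand, reads in the shared stretch cannot be told apart. Eid3 had a mean of only 0.048 FPKM, whereas Trmt112 and Pomt2 had 109 and 9.03 FPKM.

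In part of the set the library that stood apart had the same replicate number in both genotypes. In 11 of the 48 genes (22.9%) replicate 2 was the lowest library in both genotypes, against 16.3% of all tested genes, and in 14 (29.2%) it was the highest in both, against 14.8%. Replicate 1 was lowest in both genotypes in 13 genes (27.1%, against 16.4%) and highest in both in 4 (8.33%, against 16.2%), and replicate 3 lowest in both in 3 (6.25%, against 13.6%) and highest in both in 8 (16.7%, against 13.8%). For replicate 2 the lowest set held Gpx3, Sod3, Hmox1, Nqo1, Gclc and 6 of the 16 tested cytosolic transferases (Gsta2, Gsta3, Gstm1, Gstm2, Gstm5 and Gstt1). In the highest set were 4 of the 6 peroxiredoxins (Prdx1, Prdx2, Prdx5 and Prdx6), 3 of the 5 thioredoxin genes (Txn1, Txnrd1 and Txnrd2), Sod1, Sod2, Gpx4, Gss, Gstm7, Gstz1 and Mgst3. Gpx3 and Sod3, the secreted peroxidase and dismutase, were thus low in the same ovaries in which the cytosolic Sod1 and Prdx1 were high. These genes were picked by their values, so the counts are a description without a test.

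**Figure D4:**
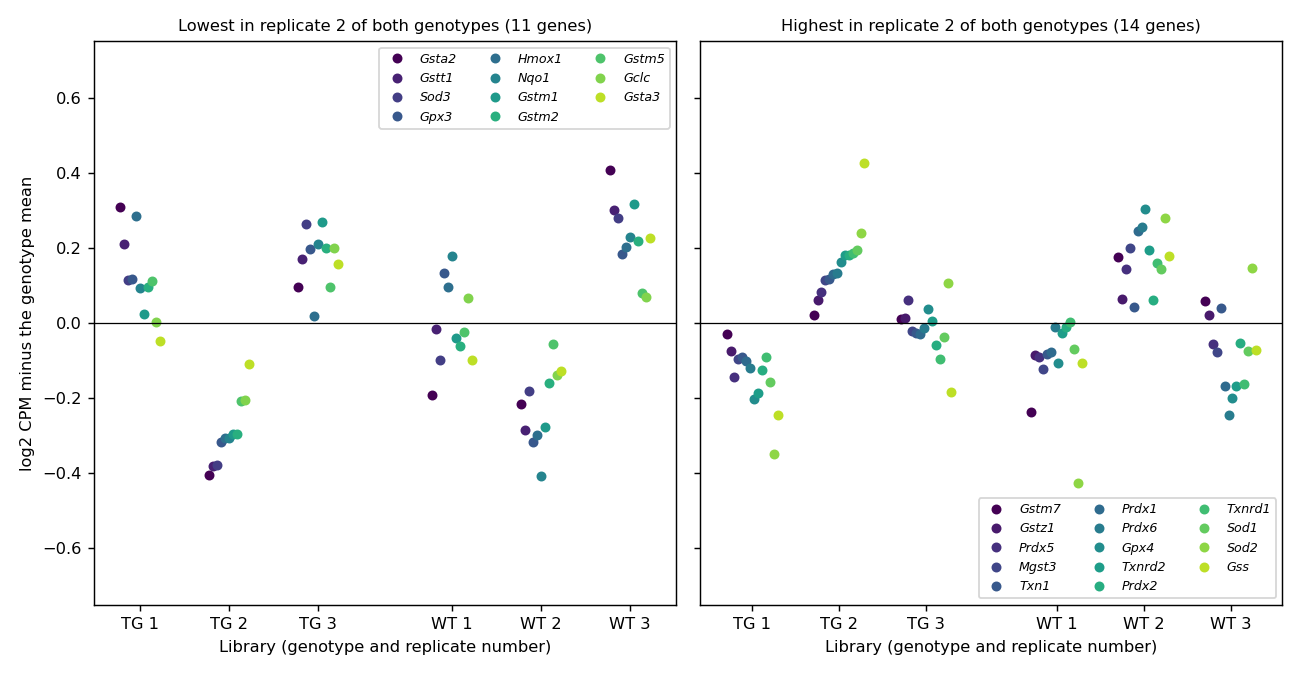
Log2 CPM minus the genotype mean in each library, for the 11 genes lowest in replicate 2 of both genotypes (left) and the 14 genes highest there (right), 1 colour per gene. Points of the left panel lie below 0 in TG 2 and WT 2, and those of the right panel lie above 0, which follows from how the genes were chosen.

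Cell markers were read beside this pattern. Of 12 marker lists, 2 (oocyte and erythrocyte) had their lowest sum in replicate 2 of both genotypes and 0 had their highest there. Oocyte markers summed to 137 CPM in TG replicate 2 and 103 CPM in WT replicate 2, with 151 and 152 CPM in the other TG and 129 and 200.0 CPM in the other WT libraries. Adipocyte markers were high in TG replicate 2 (185 CPM against at most 35.8 elsewhere) and lowest in WT replicate 2 (15.5 CPM). The part of any of these cells in the pattern was not tested. With TG replicate 2 and WT replicate 2 removed together, 0 members were called, beside 169 genes over the whole table. This pair was chosen after seeing the data, and 0 members were called with all 6 libraries too. The count therefore says nothing about the pattern.

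No other gene of glutathione and redox metabolism from the pathway lists was called. In the list of glutathione handling and NADPH supply 0 of 25 tested genes were called in either direction and 1 had an unadjusted p under 0.05. That gene was Ggct, which releases oxoproline during glutathione breakdown, at a log2 ratio of 0.31 (SE 0.13). Glrx2, a mitochondrial glutaredoxin, and Ggt5, a gamma-glutamyl transferase, had 0.18 (SE 0.10) and 0.31 (SE 0.21). Of the 15 partners of peroxiredoxins and thioredoxins, 10 partners and regulators of NRF2 and 16 further NRF2-linked, haem, iron and metal genes, 0 were called and 0 had an unadjusted p under 0.05. Cul3, the ligase scaffold that works with KEAP1, had 0.14 (SE 0.09), the epoxide hydrolase Ephx1 0.26 (SE 0.14) and the constitutive haem oxygenase Hmox2 -0.17 (SE 0.10). The methionine sulphoxide reductase Msrb1 had -0.16 (SE 0.12). Nfe2, an erythroid relative of NRF2, had the largest difference of these lists at -0.85 (SE 0.40, 95% interval -1.75 to 0.06), at 1.33, 1.09 and 1.17 CPM in TG and 1.51, 3.61 and 1.35 CPM in WT. WT replicate 2 stood far above the other 5 libraries, which lay between 1.09 and 1.51 CPM. The list medians were 0.05, 0.00, 0.02 and 0.01.

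In the same libraries the 9 interferon-response genes that were measured were all called lower in TG, beside 1.02% of all tested genes. Their summed levels were 229 to 244 CPM in TG and 975 to 1570 CPM in WT, and their median log2 ratio was -3.51. This list was chosen with earlier results of these data known.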

How the data were processed

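Ovarian total RNA of 6 libraries was read on the BGISEQ-500 platform, per the labels' protocols. Tools listed in the submitters' processing notes are RSEM 1.3.1, Bowtie2 and DESeq2 1.4.5, with build mm10; the annotation and strandedness are not given in the sources used here. The authors deposited estimated counts per gene and library. The other value columns, also deposited, were taken as FPKM from their values, since the file header names no unit: count over value gave an implied gene length that differed between libraries by a median factor of 1.01 over 3779 genes. FPKM served to compare levels between genes.

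After rounding, counts were tested with edgeR 4.0.16 under R 4.3.3 (filterByExpr with a minimum count of 10 and total of 15, TMM, quasi-likelihood fit of genotype, two-sided, Benjamini-Hochberg adjustment over 14124 genes, threshold 0.05). CPM use effective library sizes. Standard errors were derived from the log2 ratio and the F statistic, and intervals are 95%. Coordinates and promoters are from RefSeq (GRCm38.p6, to which mm10 corresponds). The fit was tested on simulated data.

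The members and gene lists were chosen with earlier results of these data known. Library values are given for any member that passed, for the 12 members with the smallest p, for the most abundant member of each role group and for Nfe2l2, Keap1, Gclc, Gclm, Nqo1 and Hmox1, and up to 3 genes per pathway list are named. Any other value was chosen after it was seen. Alternatives were composition factors by RLE or upper quartile or none, other count filters, DESeq2 1.42.0, limma 3.58.1 (voom, and trend on log2(FPKM + 1) and log2(FPKM + 0.1), for genes at 1 FPKM or more in 3 libraries), a block for the replicate number, each library left out in turn, 2 pairs of libraries left out, and a minimum log2 fold change of 0.5. Lists of markers covered granulosa, theca and interstitial, luteal, oocyte, erythrocyte, macrophage, endothelium, smooth muscle, surface epithelium, oviduct, adipocyte and interferon-response genes.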

Additional observations from a re-analysis of the deposited data

How the results depend on the processing

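The count of 0 members called, in either direction, was the same in the reported fit and in all alternatives run, DESeq2, limma-voom and both FPKM fits included, while the count of genes called over the whole table ran from 119 to 200. Members at an unadjusted p under 0.05 numbered 1 in the reported fit, 5 with a replicate block, 8 without TG replicate 2 and WT replicate 3 together, and 0 to 3 when 1 library was left out. The share over all tested genes at this line was computed for the reported fit only (4.08%). Whether the whole table moved as much in the other settings was therefore not determined, and the counts are not read as a trait of the set. The log2 fold change kept its sign in all 18 settings for 21 of the 48 genes, and for the other 27, Gpx3 among them, it turned in at least 1. The members' median was 0.02, and it was -0.01 without WT replicate 1 and up to 0.05 without TG replicate 1. The replicate number was not treated as a pairing: deviations from the genotype means correlated at 0.228, 0.080 and 0.094 across genes for replicates 1, 2 and 3, and over all genes every library correlated best with its own number, which is a hint from the data and not from the design. Across the members alone the values were 0.369, 0.667 and 0.324, and there TG replicate 1 and WT replicate 3 correlated best with each other, at 0.501. With the replicate block 159 genes were called over the whole table, against 149, and 0 members. Leaving out TG replicate 2 and WT replicate 2 together was chosen after seeing the data. The 8 untested genes had too few counts for the filter.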
